A study of Mus musculus with 4 samples.

Results

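The enzymes and carrier that turn citrate and acetate into palmitate in the cytosol were followed in thymic invariant natural killer T (iNKT) cells. They were 8 genes, taken by symbol from the 32285 genes of the count tables: Slc25a1, Acly, Acss2, Acaca, Acacb, Mlycd, Fasn and Me1. All 8 were found, each as a single row. iNKT cells are T cells with a semi-invariant receptor for lipids presented by CD1d. The single-cell RNA-seq libraries came from thymuses of mice 6 to 8 weeks old, magnetically enriched for CD1d tetramer binding and then sorted for that binding and for CD3. Wild-type (WT) cells gave 2 libraries and cells labelled ACC1 KO gave 2, each pair numbered 1 and 2. The protein ACC1 is the product of Acaca. The strain, the deleted part of the gene, any Cre driver and any treatment were not stated in the labels. Separate animals are not named in the labels, and the p-values measure the spread between these 4 libraries.

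Fatty acid synthesis starts from citrate made in mitochondria. Slc25a1 carries it to the cytosol, where Acly splits it into acetyl-CoA, and Acss2 makes the same product from acetate. Acetyl-CoA carboxylase turns acetyl-CoA into malonyl-CoA. Its form ACC1 (Acaca) is cytosolic and serves synthesis, and its form ACC2 (Acacb) sits at the mitochondrial outer membrane, where malonyl-CoA restrains fatty acid oxidation. Mlycd turns malonyl-CoA back into acetyl-CoA, Fasn builds palmitate from malonyl-CoA and NADPH, and Me1 is a cytosolic source of NADPH.

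The clusters taken as iNKT held 4615 cells in WT 1, 9013 in WT 2, 5603 in ACC1 KO 1 and 7796 in ACC1 KO 2, the order used below. Their sums held 23.6, 63.3, 28.5 and 65.6 M unique molecular identifiers (UMIs), each standing for 1 captured transcript. Zbtb16, the transcription factor that defines the lineage, lay between 191 and 309 CPM (counts scaled to library totals with TMM factors) in the 4 sums. Cd3e lay between 461 and 702 CPM. Y-linked Ddx3y was at 78.0 CPM or more in WT 1 and ACC1 KO 1, with Xist under 1 CPM. Xist was at 598 CPM or more in WT 2 and ACC1 KO 2, the deeper libraries, with Ddx3y under 1 CPM. The 2 libraries of a genotype thus hold cells of different animals, and number, sex-linked genes and depth cannot be told apart. Differences within each number are given for the members for that reason. Pairs of libraries shared 10 to 27 barcodes. Counts of 3′ ends check nothing about a deletion elsewhere in Acaca, so the genotypes stand as labelled. Levels are compared between cells and not between genes.

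Promoter sequence is shown for 4 genes: Fasn and Slc25a1, which were higher in each ACC1 KO library than in either WT library, and Acly and Acss2, which supply acetyl-CoA and overlapped between genotypes. Each line gives the 250 bases before the RefSeq transcription start (GRCm38.p6, the build that mm10 names), read 5′ to 3′ along the gene, with CCAAT boxes on either strand in capitals.
Fasn, chr11:120824548-120824797, minus strand: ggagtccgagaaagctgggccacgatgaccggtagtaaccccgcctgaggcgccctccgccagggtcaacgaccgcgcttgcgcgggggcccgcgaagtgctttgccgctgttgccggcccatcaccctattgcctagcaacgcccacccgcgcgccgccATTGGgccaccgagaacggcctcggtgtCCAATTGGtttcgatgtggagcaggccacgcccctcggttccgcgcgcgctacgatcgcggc
Slc25a1, chr16:17928220-17928469, minus strand: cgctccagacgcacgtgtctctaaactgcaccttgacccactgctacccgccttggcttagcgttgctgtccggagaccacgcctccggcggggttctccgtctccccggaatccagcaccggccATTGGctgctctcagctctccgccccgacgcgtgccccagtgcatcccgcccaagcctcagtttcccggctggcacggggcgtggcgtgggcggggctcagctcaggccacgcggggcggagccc
Acly, chr11:100528001-100528250, minus strand: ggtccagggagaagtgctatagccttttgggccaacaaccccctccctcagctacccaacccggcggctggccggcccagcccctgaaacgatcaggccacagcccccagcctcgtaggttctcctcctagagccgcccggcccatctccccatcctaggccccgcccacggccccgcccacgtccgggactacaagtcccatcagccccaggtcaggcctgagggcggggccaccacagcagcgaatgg
Acss2, chr2:155517793-155518042, plus strand: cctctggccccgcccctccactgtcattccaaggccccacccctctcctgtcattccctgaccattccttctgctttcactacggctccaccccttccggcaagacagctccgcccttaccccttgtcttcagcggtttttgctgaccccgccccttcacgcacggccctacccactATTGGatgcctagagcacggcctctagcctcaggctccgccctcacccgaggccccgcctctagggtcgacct

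The Fasn window held 3 CCAAT matches, 2 of which overlap in CCAATTGG. The Slc25a1 and Acss2 windows each held 1 and the Acly window 0. Among the members not printed, the window of Mlycd, which overlapped between genotypes, also held 3. That of Acacb held 1, that of Acaca 0, and the 2 windows of Me1 held 0 and 1. At least 1 CCAAT match on either strand occurred in 33.8% of the 32851 promoter windows in the table. The GC box GGGCGG matched 4 times in the windows of Slc25a1, Acly and Acss2 and 0 times in that of Fasn, against 32.7% of all windows with a match. The E-box CACGTG matched 1 time in Slc25a1 and in none of the other members (6.02% of windows). A strict sterol regulatory element, TCACNCCAC, matched in no member's window and in 1.05% of all windows. These letter matches describe the windows and show no binding. RefSeq's windows for the other 4 members were searched as well. That for Acaca begins at position 84195188 of chromosome 11, inside the gene (84129672 to 84401651, plus strand, GENCODE M21), and is not printed. The Acacb window (114165268 to 114165517) and the Me1 window with 1 CCAAT match (86687278 to 86687527) also lie inside their genes.

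The question of the genotype comparison was which steps of the path changed in transcript level in cells labelled ACC1 KO. Fasn had the largest difference of the members, a log2 fold change of 1.06, followed by Acaca at 0.76 and Slc25a1 at 0.37. All 3 lay above WT in both ACC1 KO libraries, while Acly, Acss2, Mlycd and Acacb overlapped between the genotypes. With edgeR's quasi-likelihood test over 14722 genes, 0 of the 7 tested members passed an adjusted p of 0.05. That test called 1 gene in all, Scd1, or 0.00679% of genes. At an unadjusted p under 0.05, Fasn and Acaca were higher, against 3.06% of all genes. DESeq2 called Fasn and no other member, against 0.462% of all genes called higher. With the library number as a term, edgeR called Fasn, Acaca and Slc25a1 higher (adjusted p = 2.08e-21, 4.43e-11 and 0.00552), against 6.30% of all genes called higher and 3.81% lower, with 1 residual degree of freedom. The genotypes were apart without overlap, ACC1 KO higher, for 3 of the 7 members and for 14.4% of all genes, and ACC1 KO lower for 0 members and 15.1% of all genes. The median log2 fold change was 0.19 over the 7 members and -0.01 over all genes. The class mix differed as well: iNKT1-like cells made up 81.4 and 83.7% of iNKT cells in the WT libraries and 72.4 and 74.8% in the ACC1 KO libraries.

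**Figure D1:**
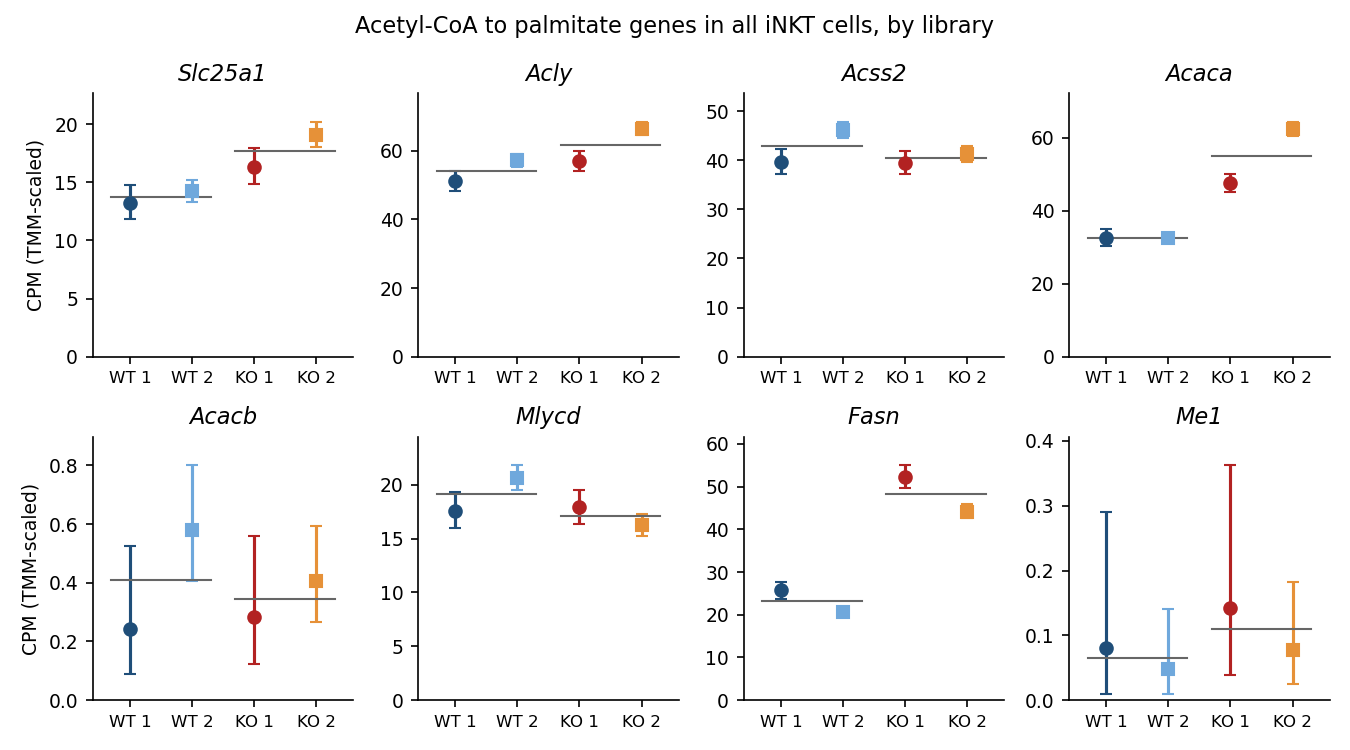
CPM of each member in the sum of all iNKT cells of each library (bars, exact Poisson 95% intervals for counting error; grey lines, means of each genotype; every axis starts at 0 and has its own scale). Fasn, Acaca and Slc25a1 are higher in both ACC1 KO libraries than in either WT library.

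Slc25a1, the citrate carrier (ENSMUSG00000003528, chromosome 16, 17925223 to 17928219, minus strand), had 13.2 CPM in WT 1, 14.3 in WT 2, 16.4 in ACC1 KO 1 and 19.1 in ACC1 KO 2. The genotypes did not overlap, and ACC1 KO was higher. The log2 fold change was 0.37 ± 0.15 (SE, n = 2 against 2), and it was 0.30 within number 1 and 0.42 within number 2 (edgeR adjusted p = 0.9998). Acly, ATP citrate lyase (ENSMUSG00000020917, chromosome 11, 100476353 to 100528000, minus strand), had 51.1, 57.3, 57.0 and 66.5 CPM in the same order. ACC1 KO 2 was the highest, and ACC1 KO 1 lay just below WT 2, so the genotypes overlapped. The log2 fold change was 0.19 ± 0.15, with 0.16 in number 1 and 0.21 in number 2 (edgeR adjusted p = 0.9998). Acss2, the cytosolic acetyl-CoA synthetase (ENSMUSG00000027605, chromosome 2, 155517948 to 155585724, plus strand), had 39.7 and 46.1 CPM in WT, against 39.5 and 41.2 CPM in ACC1 KO. WT 2 was the highest and the other 3 libraries lay close together. Its log2 fold change was -0.09 ± 0.14, with -0.0075 in number 1 and -0.16 in number 2 (edgeR adjusted p = 0.9998). The 3′ end of Acss2 overlaps Gss on the opposite strand, and whether the counting used strand is not stated. On library totals without TMM factors the log2 fold changes were 0.14 for Acly and -0.13 for Acss2.

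Acaca (ENSMUSG00000020532) had 32.6 CPM in WT 1, 32.5 in WT 2, 47.5 in ACC1 KO 1 and 62.4 in ACC1 KO 2, from 809, 2026, 1341 and 3995 UMIs. The WT libraries were nearly equal, and ACC1 KO 2 stood above ACC1 KO 1 beyond the counting intervals, which ran from 44.97 to 50.1 and from 60.5 to 64.4 CPM. The log2 fold change was 0.76 ± 0.17, with 0.54 in number 1 and 0.94 in number 2. Adjusted p was 0.659 in edgeR and 0.0587 in DESeq2. Acacb (ENSMUSG00000042010, chromosome 5, 114146535 to 114250761, plus strand) was near the floor of detection. It had 6, 36, 8 and 26 UMIs in the 4 libraries, or 0.24 to 0.58 CPM. The genotypes overlapped, and the log2 fold change was -0.30 ± 0.55, with 0.20 in number 1 and -0.47 in number 2 (edgeR adjusted p = 0.9998). Mlycd, malonyl-CoA decarboxylase (ENSMUSG00000074064, chromosome 8, 119394878 to 119411102, plus strand), had 17.6, 20.7, 17.9 and 16.2 CPM. WT 2 was the highest and ACC1 KO 2 the lowest. The log2 fold change was -0.17 ± 0.15, with 0.03 in number 1 and -0.35 in number 2 (edgeR adjusted p = 0.9998).

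Fasn, fatty acid synthase (ENSMUSG00000025153, chromosome 11, 120805846 to 120824547, minus strand), had 25.7 CPM in WT 1, 20.5 in WT 2, 52.3 in ACC1 KO 1 and 44.2 in ACC1 KO 2, from 639, 1279, 1477 and 2829 UMIs. Within each genotype the library numbered 1 was the higher, and the lowest ACC1 KO library was well above the highest WT library. WT libraries averaged 23.1 ± 3.66 CPM (SD, n = 2), against 48.2 ± 5.73 CPM in the ACC1 KO libraries (SD, n = 2). On the log2 scale the difference was 1.06 ± 0.18 (SE from edgeR). It was 1.02 between the libraries numbered 1 and 1.10 between those numbered 2. It ranked 52nd by p among 14722 genes, and 3.02% of genes had a larger absolute change. Adjusted p was 0.404 in edgeR and 0.00048 in DESeq2, so the call depends on the method. In cells drawn to the same mix of iNKT classes in every library the log2 fold change was 0.98, and without WT 1, WT 2, ACC1 KO 1 or ACC1 KO 2 it was 1.24, 0.91, 0.95 and 1.18. Summed markers of other cells, and of cycling cells, which are among the iNKT classes, were measured in these sums too. The 7 B cell markers came to 83.2 to 98.2 CPM with the genotypes overlapping, and Cd79a, Ms4a1 and Ebf1 were under 1 CPM in every library. The 10 markers of double-positive (DP) thymocytes came to 102 and 86.6 CPM in WT, against 129 and 123 CPM in ACC1 KO, where 1 of the 10 was higher without overlap, with Rag1, Rag2, Dntt and Ptcra under 1 CPM. The 12 cycling markers came to 316 and 485 CPM in WT, against 508 and 624 CPM in ACC1 KO, and 10 of the 12 were higher without overlap. The 5 markers of conventional mature T cells came to 416 and 452 CPM in WT, against 687 and 523 CPM in ACC1 KO, with 4 of the 5 higher and Dapl1 under 1 CPM. The 5 markers of gamma delta T cells came to 189 and 162 CPM in WT, against 102 and 83.9 CPM in ACC1 KO, with 3 of the 5 lower and Trdc and Trdv4 under 1 CPM. Among the classes named below, Ccr9 of the mature T cell set was a leading gene of the iNKT2-like cluster. The gamma delta T cell set had its highest marker score, 1.64, in the iNKT17-like cluster. These sets thus do not mark other cells alone. The part of these transcripts in the result was not tested. Me1 (ENSMUSG00000032418, chromosome 9, 86581371 to 86695953, minus strand) had 2, 3, 4 and 5 UMIs in the 4 libraries and was filtered out of the test.

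The comparison was repeated within the 4 iNKT classes of 50 or more cells per library, to see whether the differences were shared. Classes were named from marker genes: iNKT1-like cells with Tbx21 and natural killer receptors, iNKT2-like cells with Zbtb16, Il4 and Plac8, cycling cells, and interferon-responding cells. Acacb and Me1 did not pass the filter on low counts in any class. Fasn, Acaca and Slc25a1 lay above WT in both ACC1 KO libraries in all 4 classes, which share libraries and are not independent. Of all tested genes, such a gap was present for 13.3, 12.6, 14.0 and 14.1% in the 4 classes in that order. In edgeR 0 of 6 tested members passed adjustment in any class, where it called 0.00731% of genes in iNKT1-like, 0 genes in iNKT2-like, 0.0669% higher and 0.00956% lower in cycling and 0.0473% in interferon-responding cells. At an unadjusted p under 0.05, Fasn and Acaca were higher in every class and Slc25a1 also in iNKT1-like cells, against 2.29, 1.46, 1.84 and 2.05% of all genes in the same order. DESeq2 called Acaca and Fasn in iNKT1-like cells (adjusted p = 0.0225 and 0.00102) and 0 members in the other classes, against 0.461, 0.0380, 0.0860 and 0.133% of all genes called higher in the 4 classes. With the library number as a term edgeR called Acaca in every class, Fasn in all but iNKT2-like cells and Slc25a1 in iNKT1-like cells. That fit called 5.65, 0.808, 0.765 and 3.35% of all genes higher and 3.88, 0.285, 0.172 and 1.78% lower. Within number 1 the log2 differences of Fasn ran from 0.54 to 1.37 over the classes and within number 2 from 0.55 to 1.296. Those of Acaca ran from 0.25 to 0.79 and from 0.81 to 1.02.

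**Figure D2:**
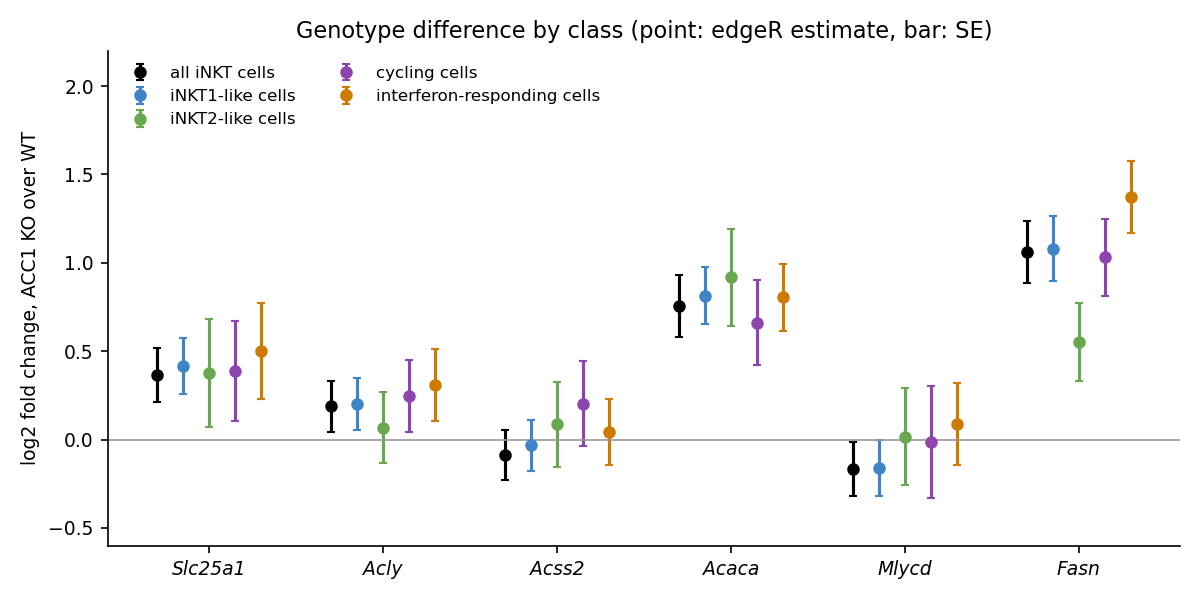
Log2 fold changes of ACC1 KO over WT from edgeR, with SE, for the 6 members tested in all iNKT cells and in each class (n = 2 libraries against 2). Fasn lies at 1.03 to 1.37 except in iNKT2-like cells, where it is 0.55, and Mlycd and Acss2 lie around 0.

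Fasn in iNKT1-like cells was at 24.2 and 18.6 CPM in WT 1 and WT 2 and at 48.6 and 41.6 CPM in ACC1 KO 1 and ACC1 KO 2. In iNKT2-like cells it was at 44.5 and 36.3 CPM in WT, against 64.9 and 53.3 CPM in ACC1 KO. The WT level was thus higher in iNKT2-like cells and the gap between genotypes smaller. In cycling cells the values were 36.5 and 34.3 CPM in WT, against 79.6 and 64.9 CPM in ACC1 KO. In interferon-responding cells they were 14.8 and 13.7 CPM in WT, against 39.2 and 34.2 CPM in ACC1 KO. In each of these classes the genotypes did not overlap. The log2 fold changes were 1.08 ± 0.18, 0.55 ± 0.22, 1.03 ± 0.22 and 1.37 ± 0.20 (SE), with edgeR adjusted p of 0.410, 0.9998, 0.327 and 0.143. The test of the difference between iNKT2-like and iNKT1-like cells gave -0.55 ± 0.17 for Fasn (unadjusted p = 0.00303, edgeR adjusted p = 0.337). It called 0 members and 0.0970% of 13403 genes, and 5.96% of genes, with Fasn the only member among them, had an unadjusted p under 0.05.

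Acaca in iNKT2-like cells, where its difference was largest, was at 24.4 and 33.1 CPM in WT, against 41.7 and 67.4 CPM in ACC1 KO. ACC1 KO 2 stood apart from the other 3 libraries. Its log2 fold changes were 0.81 ± 0.16, 0.92 ± 0.28, 0.66 ± 0.24 and 0.80 ± 0.19 in the 4 classes in the order above (edgeR adjusted p from 0.478 to 0.9999). Without ACC1 KO 1, Acaca in iNKT2-like cells was at a log2 fold change of 1.20 and passed (edgeR adjusted p = 0.0038), a fit in which ACC1 KO 2 alone stands for its genotype and the spread comes from the WT pair. The class difference for Acaca was 0.07 ± 0.19 (edgeR adjusted p = 0.991). Slc25a1 had log2 fold changes of 0.41, 0.38, 0.39 and 0.50 in the 4 classes in the same order. Acly had 0.20, 0.07, 0.25 and 0.31, and in cycling cells its ACC1 KO libraries lay above WT without overlap, at 64.4 and 77.2 against 58.5 and 61.0 CPM. Acss2 did so in cycling cells too, at 30.01 and 29.3 against 26.8 and 25.1 CPM. That made 5 of the 6 tested members there, against 14.0% of all genes. Mlycd lay between -0.16 and 0.09 and Acss2 between -0.03 and 0.20 over the 4 classes.

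The genotypes filled the 7 iNKT1-like clusters unevenly. Clusters 0, 2 and 4 held 75.7 and 62.3% of the iNKT1-like cells from the WT pair and 43.2 and 31.2% of those from the ACC1 KO pair. Clusters 1, 3 and 6 held 22.4, 36.7, 55.1 and 67.6%. Members were therefore also read within each cluster. Fasn and Acaca lay above WT in both ACC1 KO libraries in all 7 clusters, and Slc25a1 in 4. In the whole iNKT1-like class 13.3% of all tested genes lay above and 14.2% below WT without overlap. Shares of all genes within each cluster were not computed. The log2 ratio of the genotype means ran from 0.79 to 1.63 for Fasn and from 0.60 to 1.20 for Acaca over the clusters. Both highest ratios came from cluster 13, of 70 to 78 cells per library. There the WT libraries held 7 UMIs each of Fasn and 9 and 16 of Acaca. Cluster 6 held 63 cells of WT 1, with 8 UMIs of Fasn and 6 of Acaca. Acss2 showed the opposite sign, with ratios from -0.77 (cluster 13, on 8 to 17 UMIs per library) to -0.01. The genotypes did not overlap for Acss2 in 3 clusters. In cluster 1, among them, it was at 57.6 and 62.0 CPM in WT, against 48.5 and 43.0 CPM in ACC1 KO. Over the whole iNKT1-like class, by contrast, its log2 fold change was -0.03. In WT, Acss2 was highest in clusters 1 and 3, with means of 59.8 and 65.0 CPM, against 35.7 to 43.7 CPM in the other 5 clusters. In ACC1 KO cluster 3 was the highest in both libraries, at 51.0 and 60.4 CPM. Cluster 1 was there level with cluster 2 in ACC1 KO 1 (48.3 CPM) and with cluster 0 in ACC1 KO 2 (43.5 CPM). Mlycd lay below WT without overlap in 2 clusters. The clusters were built from the same cells, so these values are a description without a test.

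**Figure D3:**
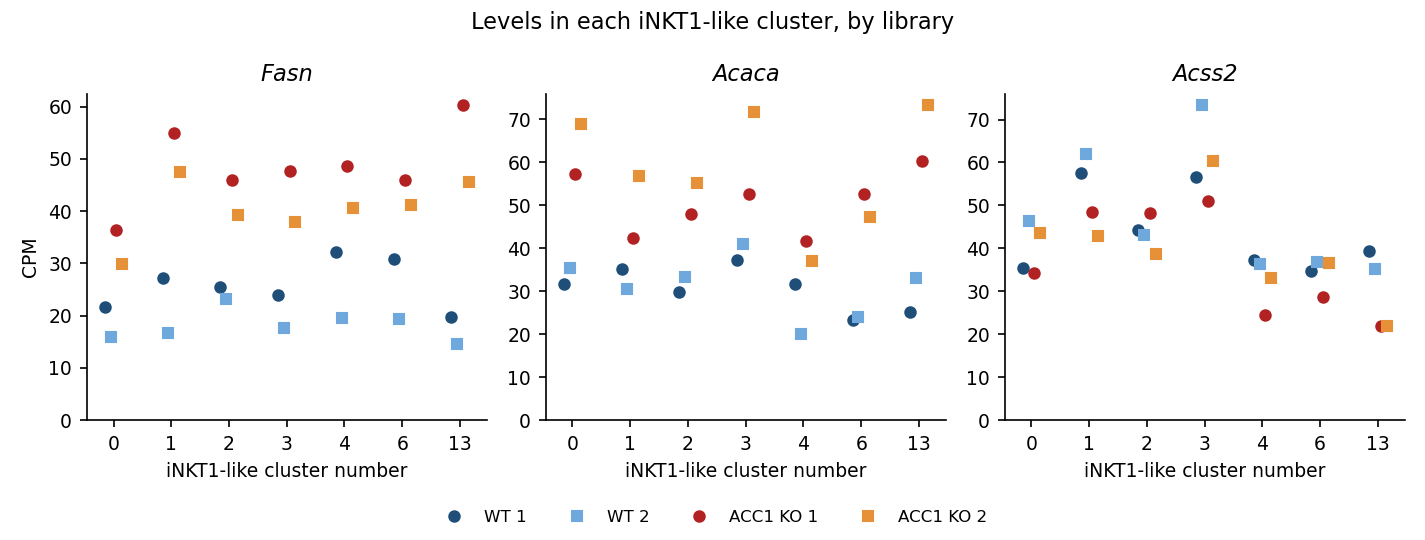
CPM of Fasn, Acaca and Acss2 in each of the 7 iNKT1-like clusters, a point for each library (cluster numbers on the x axis). Points carry no counting intervals, and clusters 6 and 13 held as few as 63 and 70 cells in a library. The ACC1 KO points of Fasn and Acaca lie above the WT points in every cluster, and those of Acss2 lie below both WT points in 3.

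Across cell classes the members fell into different patterns, described here without a test because the classes come from the same cells. None of the members but Me1 was among the 2000 genes used for clustering. The iNKT2-like and cycling classes are not fully separate. The iNKT2-like cluster had a cycling marker score of 1.93, above the 1.5 that names a cycling cluster, and kept its name through a higher iNKT2 score. Of the cycling clusters, cluster 9 had an iNKT2 score of 2.53, and clusters 8 and 18 had 0.02 and 0.50. Among the 5 classes of 50 or more cells per library, cycling cells had the highest mean CPM of Slc25a1, Acly, Acaca and Fasn, though with cells thinned to 2000 UMIs DP thymocyte-like cells were above them for Acly. iNKT1-like cells had the highest of Acss2, and interferon-responding cells that of Mlycd. The DP thymocyte-like class joined 2 unlike clusters. In the larger, Acss2 was at 63.7, 65.3, 81.3 and 45.2 CPM in the 4 libraries, on 9 to 21 UMIs. In the other it was at 12.1, 6.68, 13.3 and 23.2 CPM, so its rank there holds for the joined class only. Most neighbours in these orders overlapped between libraries.

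Fasn had means over the 4 libraries of 53.9 CPM in cycling, 49.8 in iNKT2-like, 33.2 in iNKT1-like, 25.5 in interferon-responding and 25.3 in DP thymocyte-like cells. Cycling and iNKT2-like cells were not ordered, with each above the other in 2 libraries. iNKT2-like cells were above iNKT1-like cells, and these above interferon-responding cells, in 4 of 4 libraries each. Acaca had means of 60.4 CPM in cycling, 55.0 in DP thymocyte-like, 42.8 in iNKT1-like, 41.7 in iNKT2-like and 31.9 in interferon-responding cells. The cycling range, 46.0 to 89.0 CPM, lay wholly above the interferon-responding range, 21.8 to 43.2 CPM, and the other neighbours overlapped. The DP mean joined 2 unlike clusters. In the larger, Acaca was at 3.03, 35.6, 10.2 and 60.3 CPM in the 4 libraries, on 1 to 12 UMIs. In the other, with Top2a and Ube2c among its leading genes, it was at 39.9 to 87.1 CPM. Acly was nearly level, from 50.6 CPM in interferon-responding to 65.2 CPM in cycling cells. Slc25a1 had its highest mean in cycling cells, 19.1 CPM, above iNKT1-like cells in 4 of 4 libraries, and its lowest in DP thymocyte-like cells, 8.13 CPM.

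Acss2 ran the other way. It was at 41.9 to 48.7 CPM in iNKT1-like and 38.9 to 48.6 CPM in interferon-responding cells, and at 22.8 to 28.7 CPM in iNKT2-like and 25.1 to 30.01 CPM in cycling cells. Every library of the first pair of classes lay above every library of the second pair. Mlycd was at 16.7 to 21.3 CPM in iNKT1-like cells and at 3.31 to 7.36 CPM in DP thymocyte-like cells, without overlap. The DP values rest on 2 to 6 UMIs per library. Acacb stayed at or under 1.22 CPM in all iNKT classes of this size and at 0 UMIs in B cell-like and myeloid-like cells. Me1 stayed at or under 0.43 CPM in those iNKT classes, and DP thymocyte-like cells held 1, 1, 2 and 0 of its UMIs.

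**Figure D4:**
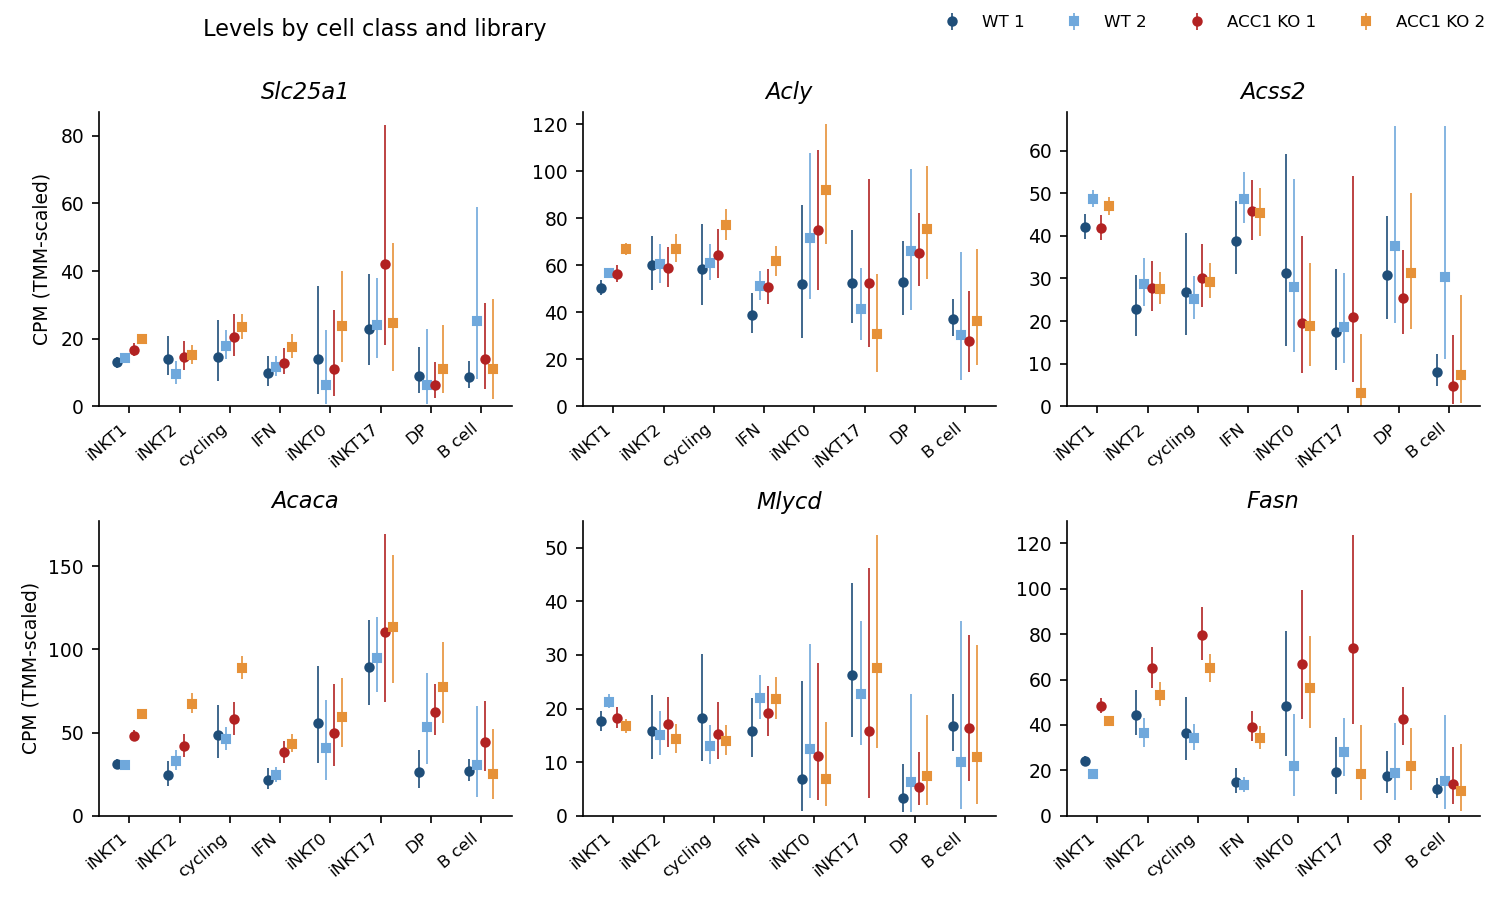
CPM by cell class (x axis; IFN, interferon-responding; DP, double-positive thymocyte-like) and library, with exact Poisson 95% intervals for counting error, for the 6 members with more than a few UMIs. Acaca is highest in the iNKT17-like cells of all 4 libraries, and Acss2 separates iNKT1-like and interferon-responding cells from iNKT2-like and cycling cells.

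The smaller classes are given as values. iNKT17-like cells, with Il23r among their markers, numbered 81, 82, 28 and 32 in the 4 libraries, a smaller share of iNKT cells in ACC1 KO. They held Acaca at 89.5, 94.8, 111 and 113 CPM, from 51, 71, 21 and 37 UMIs. Within each library this was the highest value of any class, also with cells thinned to the same number of UMIs. Across libraries WT 1 was not clearly apart from the cycling cells of ACC1 KO 2, at 88.97 CPM. In that library the cycling clusters 8 and 9 were at 92.3 and 93.1 CPM. With thinned cells iNKT17-like cells of WT 1 were at 76.3 CPM, below the 82.2 CPM of cycling cells of ACC1 KO 2. Slc25a1 was also high there, at 22.8 to 42.1 CPM, and Acss2 low, at 3.07 to 21.1 CPM. Fasn in iNKT17-like cells was at 19.3, 28.0, 73.7 and 18.4 CPM, where ACC1 KO 1 stood apart on 14 UMIs. iNKT0-like cells, the early stage with Lef1 and Cd24a, numbered 48 to 125 per library and held Fasn at 48.5, 21.8, 66.7 and 56.2 CPM and Acly at 52.0 to 92.0 CPM.

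Cells that came through the sort with the iNKT cells gave a further view of the genotype difference. DP thymocyte-like cells, with Rag1, Dntt and Cd8b1, numbered 212, 71, 209 and 88. Acaca in them was at 26.5, 53.4, 62.6 and 77.3 CPM and Fasn at 17.7, 18.9, 42.6 and 22.1 CPM, from 6 to 69 UMIs. Both genes lay above WT in both ACC1 KO libraries, as did 17.1% of 7580 genes. The class joined 2 clusters, of which 1, with Top2a and Ube2c among its leading genes, held 53, 11, 91 and 21 of these cells. In that cluster Fasn was at 19.1, 40.1, 49.7 and 29.0 CPM, with overlap of the genotypes, and Acaca at 39.9, 73.5, 74.02 and 87.1 CPM. The other cluster held 0 to 5 UMIs of Fasn and 1 to 12 of Acaca per library. The log2 fold changes were 0.92 ± 0.41 for Acaca and 0.90 ± 0.47 for Fasn (edgeR adjusted p = 0.958 for both). B cell-like cells numbered 378, 18, 119 and 39, and 1 cluster of 110 of them came from WT 1 alone. They held Fasn at 11.6, 15.1, 14.0 and 10.9 CPM and Acaca at 26.8, 30.2, 44.3 and 25.4 CPM, with overlap of the genotypes for both genes, on 3 to 29 and 6 to 67 UMIs. Myeloid-like cells, 9 to 39 per library, had 1 to 6 UMIs of Fasn.

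Likeness of pattern was read over 16 sums, 4 classes of iNKT cells in 4 libraries, as Pearson correlations of log2 CPM among 5998 genes at 20 CPM or more. The sums share libraries, depth and genotype, so these values describe and test nothing. Among the 5 genes most like Fasn were Snhg15, the desaturase gene Scd2 (r = 0.89), Cyb5b and Patz1. Those most like Acaca were Pkp4 (0.89), then Fdps and Cyp51, both of the cholesterol pathway, Slc7a5 and Dpysl2. Acly was most like Slc7a5 (0.94), a subunit of the large neutral amino acid transporter, then Supt3, Uck2, Fdps and the pentose phosphate enzyme gene Tkt. Acss2 was most like Nmnat2 (0.96), Letm2, Gimap5, Gm36279 and Kdm4d. Among the members, Acaca, Acly, Fasn and Slc25a1 correlated with each other at 0.66 to 0.81, and Acss2 with each of them at -0.58 to -0.22. Mlycd correlated with Acss2 at 0.67.

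Genes around the path were counted by list in all iNKT cells, with genes named by smallest p. Over all genes, edgeR called 0.00679% higher and DESeq2 0.462% higher and 0.245% lower. Of the 17 tested genes of citrate and acetyl-CoA supply (pyruvate dehydrogenase, citrate synthase, carnitine carriers), 0 were called by edgeR or DESeq2. Their median log2 fold change was -0.0019, and 0 lay above and 2 below WT without overlap, against 14.4 and 15.1% of all genes. Slc25a20, the carnitine carrier, was at 13.2 and 11.98 CPM in WT, against 9.74 and 10.9 CPM in ACC1 KO. Pdk3, Pdhx and Pdha1 were next by p, with log2 fold changes from -0.07 to 0.09. Of 13 genes of NADPH supply, edgeR called 0 and DESeq2 called Me3, the mitochondrial malic enzyme, at 1.25 and 1.96 CPM in WT, against 4.07 and 7.12 CPM in ACC1 KO (log2 fold change 1.78 ± 0.38, edgeR adjusted p = 0.578, DESeq2 adjusted p = 0.0113). Idh1 had a log2 fold change of 0.85, Tkt of 0.46 and H6pd of -0.45, each without overlap of the genotypes. Of the 13 genes, 4 lay above and 1 below WT in this way, against 14.4 and 15.1% of all genes. Of 7 genes of mitochondrial fatty acid synthesis, 0 were called by edgeR or DESeq2, and Acsf3, the mitochondrial malonyl-CoA synthetase, was at 2.90 and 2.96 CPM in WT, against 1.42 and 2.55 CPM in ACC1 KO. Mcat, Ndufab1 and Cbr4 overlapped between the genotypes.

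The 8 genes of biotin handling and the other biotin carboxylases had 0 calls in edgeR and DESeq2, and 5 lay below WT without overlap, as did 15.1% of all genes. Hlcs, which attaches biotin to carboxylases, was at 42.7 and 42.5 CPM in WT, against 35.4 and 38.0 CPM in ACC1 KO. Mccc1, Pccb and Pcca had log2 fold changes of -0.33, -0.16 and -0.12. Of 13 tested regulators of acetyl-CoA carboxylase, edgeR called 0 and DESeq2 called Mid1ip1, whose protein promotes polymerisation of the carboxylase. It was at 9.94 and 11.6 CPM in WT, against 20.8 and 21.7 CPM in ACC1 KO (log2 fold change 0.97 ± 0.15, edgeR adjusted p = 0.327, DESeq2 adjusted p = 0.00269). Trib3 was at 0.12 to 1.14 CPM, and Camkk2 and Prkag2 had log2 fold changes of 0.28 and 0.19.

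Of 14 tested lipogenic transcription factors and genes of their handling, edgeR called 0 and DESeq2 called 3: Srebf1 and Srebf2, the sterol regulatory element-binding proteins, and Insig1, which retains their precursors in the endoplasmic reticulum. Srebf1 was at 19.6 and 17.7 CPM in WT, against 60.3 and 63.1 CPM in ACC1 KO (log2 fold change 1.73 ± 0.14, edgeR adjusted p = 0.100). Insig1 had a log2 fold change of 1.64 and Srebf2 of 0.84, without overlap, and Mlxip of 0.10. Of the 14 genes, 4 lay above and 0 below WT without overlap, against 14.4 and 15.1% of all genes. In interferon-responding and in cycling cells edgeR called Srebf1 as well (adjusted p = 0.0322 and 0.00539). The 13 tested users of palmitate and malonyl-CoA had 1 call by edgeR and 5 by DESeq2, all higher. Of all genes, 0.00679 and 0.462% were called higher by these tests. Of the 13 genes, 9 lay above and 1 below WT without overlap, against 14.4 and 15.1% of all genes. At an unadjusted edgeR p under 0.05, 6 were higher and 1 lower. Scd1, a stearoyl-CoA desaturase, rose from 0.08 and 0.05 CPM in WT to 12.1 and 13.4 CPM in ACC1 KO (edgeR adjusted p = 0.0141). Scd2 was at 40.7 and 30.4 CPM in WT, against 228 and 252 CPM in ACC1 KO. Fads2 was at 0.04 and 0.03 CPM in WT, against 3.58 and 5.34 CPM in ACC1 KO, and Fads1 had a log2 fold change of 1.65. Over that list the median log2 fold change was 0.26, against 0.19 for the members and -0.01 for all genes.

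**Figure D5:**
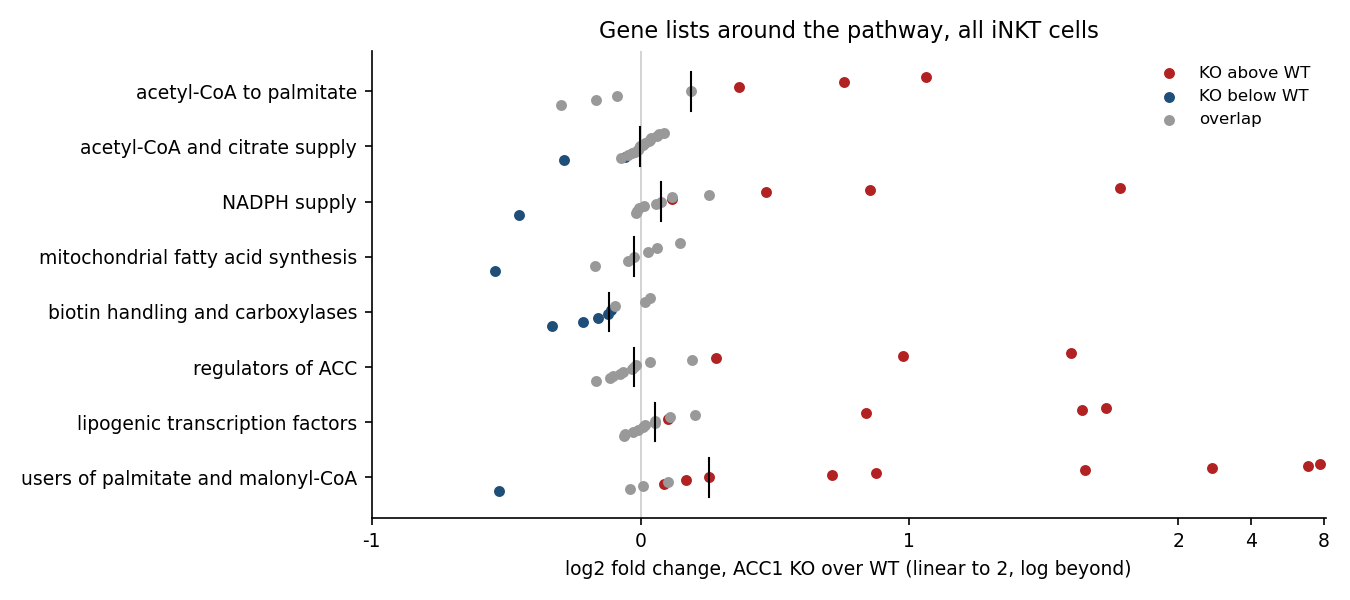
Log2 fold changes of ACC1 KO over WT in all iNKT cells for the members (top) and the genes of 7 lists around them (a point for each tested gene, black bars at list medians; the x axis is linear to 2 and logarithmic beyond). Fasn, the highest point of the top line, lies at 1.06, below the desaturases of the bottom line.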

How the data were processed

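The labels' protocols name a 10x 3′ gene expression kit (v3.1). Deposited files hold UMI counts for each gene in each barcode, and the submitters' processing notes name Cell Ranger 7.0.0 and mm10. The files hold whole-number counts of 30455 barcodes. Cells had at least 500 genes, 1000 UMIs and under 10% mitochondrial UMIs. Doublets were scored against simulated doublets, and 0.8% of cells per 1000 cells were removed (4.36 to 7.91% per library). The 28247 cells kept fell into 20 Leiden clusters (scanpy 1.11.5; 2000 variable genes, 30 components, 15 neighbours, values scaled within each replicate number). Clusters were named from marker sets, with score limits set after the data were seen, among them the rule that separates iNKT2-like from cycling clusters.

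Sums of UMIs were taken for each library, over iNKT cells and over each class. CPM were scaled by TMM factors, which small classes took from all iNKT cells. In the sums of all iNKT cells 24.8 to 64.02 UMIs per library stand behind 1 CPM, and fewer in each class, and Poisson intervals cover counting error only. Genotypes were compared with the edgeR 4.0.16 quasi-likelihood test (filterByExpr, no covariate, Benjamini-Hochberg over all genes, threshold 0.05), tested on simulated data, and with DESeq2 1.42.0 as an alternative. An exact two-sided permutation test of 2 libraries against 2 cannot give a p below 0.3333. Fold changes within a number use a prior count of 2. Named genes are the members, up to 4 genes per list with the smallest p, the 5 genes most like each member at 20 CPM or more, and any single gene called. The members, lists and tests were chosen with earlier results of these data known. Hsd17b8 was matched through its older symbol. Of the genes most like a member, 1 is not reported here.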

Additional observations from a re-analysis of the deposited data

Results flagged for a closer look

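Acss2 had log2 fold changes of opposite sign in cycling and iNKT1-like cells, in both number pairs of each class. In cycling cells its log2 fold change, ACC1 KO over WT, was 0.20 ± 0.24 (SE), with 0.16 for the number 1 pair and 0.22 for the number 2 pair. In iNKT1-like cells it was -0.03 ± 0.15 (-0.0080 and -0.05 for the pairs). Both values are smaller than their SE. The difference between these classes was not tested, and neither value passed in its own class (edgeR adjusted p = 0.9999 and 0.9996).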

How the results depend on the processing

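Each alternative changed 1 choice, except that DESeq2 brings its own size factors with its test and that summing every barcode drops the cell filters, the doublet removal and the choice of clusters together. Over the 15 alternatives in all iNKT cells the log2 fold change of Fasn stayed between 0.91 and 1.24, that of Acaca between 0.54 and 0.95 and that of Slc25a1 between 0.25 and 0.52, while their calls moved with the method. Adjusted p over these alternatives ran from 2.08e-21 to 0.778 for Fasn and from 4.43e-11 to 0.9999 for Acaca. The labels do not say that equal numbers mark a shared animal or batch (2 pairs, correlation of same-numbered deviations 0.689). With the replicate number as a block, edgeR called 3 members (Acaca, Fasn, Slc25a1) and 1488 genes in all iNKT cells, 3 and 1303 in iNKT1-like, 1 (Acaca) and 115 in iNKT2-like, 2 (Acaca, Fasn) and 98 in cycling and 2 (Acaca, Fasn) and 542 in interferon-responding cells, against 0 members and 1, 1, 0, 8 and 5 genes without it. With no filter on low counts it called 2 members (Acaca, Fasn) and 353 genes in all iNKT cells, 2 and 222 in iNKT1-like, 0 and 30 in iNKT2-like, 1 (Fasn) and 40 in cycling and 1 (Fasn) and 86 in interferon-responding cells. DESeq2 called 1 member and 104 genes, 2 and 85, 0 and 4 in the first 3 of these, and 19 genes in interferon-responding cells. At a mean of at least 10 CPM edgeR called 0 genes in all iNKT and iNKT1-like cells, 4 in cycling and 2 in interferon-responding cells. It called 0 genes with every barcode summed or with sums thinned to the smallest total, and 5 with the same mix of classes. Leaving out a library in turn gave 0 members and 12 to 36 genes in all iNKT cells, 0 and 7 to 20 in iNKT1-like, 0 to 1 and 1 to 51 in iNKT2-like (Acaca, without ACC1 KO 1), 0 to 1 and 25 to 61 in cycling (Fasn, without ACC1 KO 2) and 0 and 6 to 13 in interferon-responding cells. The class difference called 0 members under every alternative run. When libraries were left out in turn, Acss2 ran from -0.18 to 0.025 in all iNKT, from -0.13 to 0.078 in iNKT1-like, from -0.057 to 0.27 in iNKT2-like and from -0.094 to 0.23 in interferon-responding cells. Mlycd ran from -0.11 to 0.15 in iNKT2-like, from -0.33 to 0.17 in cycling and from -0.093 to 0.38 in interferon-responding cells, Acly from -0.042 to 0.15 in iNKT2-like and Acacb from -0.70 to 0.54 in all iNKT cells. The class difference ran from -0.12 to 0.38 for Acaca and from -0.41 to 0.27 for Slc25a1. Acss2 also changed sign in all iNKT cells with the same mix of classes (0.053) and in interferon-responding cells on library totals without TMM factors (-0.015), and Mlycd in cycling cells at 10 CPM or more (0.0021). The use of library totals was added after the data were seen. The highest class was the same for 5 of the 6 members with more than a few UMIs in each alternative. With clusters built without the listed genes and with cells thinned to 2000 UMIs that of Acly became DP thymocyte-like, and with doublets kept that of Acss2 became interferon-responding cells. Why the calls differ between methods was not tested, and depth limits Acacb, Me1 and the small classes.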
